A study of Mus musculus with 24 samples.

Results

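The genes described here are 10 transcription factors of body patterning that are studied as markers of fat depots: Gata4, Gata6, Tcf21, Hand2, Nr2f1, Nr2f2, Irx3, Irx5, Shox2 and Sox6. They were chosen by name, as 10 of the 53465 genes of the count table, and not by their values, although earlier results of these data were known. The libraries came from mouse adipocytes differentiated in culture from the stromal vascular fraction, the non-fat cells left when adipose tissue is digested. Cells were taken from inguinal white fat (iWAT), a subcutaneous depot, or epididymal white fat (eWAT), a visceral depot. Adipocyte formation was induced for 2 days with dexamethasone, isobutylmethylxanthine and insulin, and cells were then kept for 5 days in insulin. Mice of the knockout groups (aKO) were Senp2flox/flox ; Adipoq Cre and control mice (Cont) were Senp2flox/flox, so that all groups carried the floxed allele of Senp2, which encodes a protease that removes the small protein SUMO from other proteins. Cells received an siRNA against Cebpb (siCEBPb) or siNS, a name that the labels do not explain. Cebpb encodes C/EBPβ, a transcription factor that acts early in adipocyte formation. The 8 groups, each of 3 libraries, were aKO siCEBPb, aKO siNS, Cont siCEBPb and Cont siNS cells of iWAT and the same 4 of eWAT.

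The Adipoq promoter acts in adipocytes, so cells of the culture that had not become adipocytes would keep Senp2. The labels do not say whether replicates were separate animals or cultures, and p-values therefore measure only the spread between these libraries. Bulk RNA cannot tell fewer cells of a type from less RNA per cell.

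Transcription factors of this kind lay down position along the body axes in the embryo, and fat precursor cells of different depots retain part of that pattern. Tcf21, a basic helix-loop-helix factor of visceral mesoderm, and the zinc-finger factors Gata4 and Gata6 are known as visceral markers, while Shox2, a homeobox factor of the limb skeleton, is known as a subcutaneous one. Nr2f1 and Nr2f2 encode the orphan nuclear receptors COUP-TFI and COUP-TFII, Irx3 and Irx5 are neighbouring Iroquois homeobox genes, Hand2 is a basic helix-loop-helix factor of heart and limb, and Sox6 is an SRY-box factor of cartilage and muscle.

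All positions are in GRCm38. On the minus strand lie Tcf21 (chr10:22817281-22820174), Nr2f1 (chr13:78188973-78199757), Nr2f2 (chr7:70351944-70366735), Sox6 (chr7:115470872-116038796), Irx3 (chr8:91798525-91802067), Shox2 (chr3:66971727-66981771) and Gata4 (chr14:63198922-63271692). On the plus strand lie Hand2 (chr8:57320983-57324633) and Irx5 (chr8:92357625-92376286). Irx3 and Irx5 are separated by 555557 bases and run away from each other.

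The sequences just upstream of Tcf21, Hand2 and Shox2 are shown because these 3 members had the largest fall, the largest rise and the highest level. They are RefSeq sequences of GRCm38.p6, written 5′ to 3′ on the strand of the gene, at chr10:22820175-22820393 (minus strand), chr8:57320733-57320982 (plus strand) and chr3:66981772-66982021 (minus strand). Capitals mark matches, on either strand, to 5 motifs: a C/EBP site (TTGCNNAA), a GATA site (AGATAA), a nuclear receptor half-site (AGGTCA), an E-box (CANNTG) and a TATA box (TATAAA).
Tcf21: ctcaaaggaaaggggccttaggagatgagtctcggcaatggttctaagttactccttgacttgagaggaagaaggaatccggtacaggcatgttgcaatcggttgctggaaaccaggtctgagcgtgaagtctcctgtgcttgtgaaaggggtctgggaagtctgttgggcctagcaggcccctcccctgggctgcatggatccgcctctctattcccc
Hand2: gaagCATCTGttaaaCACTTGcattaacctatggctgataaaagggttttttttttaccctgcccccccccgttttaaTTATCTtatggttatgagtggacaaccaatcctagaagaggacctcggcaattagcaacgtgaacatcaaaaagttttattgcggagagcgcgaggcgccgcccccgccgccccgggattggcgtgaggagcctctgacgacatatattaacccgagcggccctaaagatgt
Shox2: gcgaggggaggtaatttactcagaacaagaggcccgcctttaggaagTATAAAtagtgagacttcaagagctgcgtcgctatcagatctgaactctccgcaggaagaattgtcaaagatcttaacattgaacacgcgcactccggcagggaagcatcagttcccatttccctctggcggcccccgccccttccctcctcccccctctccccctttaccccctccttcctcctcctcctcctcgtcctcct
The 219 bases shown for Tcf21 stop where the gene begins and held none of the 5 motifs. The 250 bases of Hand2 held E-boxes at positions 5 and 16 and a GATA site on the opposite strand at position 79, and those of Shox2 a TATA box at position 48, counted from 1 at the 5′ end. None of the 3 held the C/EBP letters, which occurred in 9.57% of 32817 promoter windows of 250 bases. The other shares were 9.99% for GATA, 14.0% for the half-site, 66.2% for E-boxes and 12.4% for TATA. Among the 13 windows of the 7 members in the promoter set used, 2, 3, 2, 9 and 2 held these motifs in the order named above. Several of these windows belong to Sox6. The full Tcf21 window held a GATA match 31 bases before its RefSeq start, in the part not printed. A match is only a match of letters, and its absence from a window says nothing about binding.

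The deposited counts of reads per gene were scaled to library size as CPM by the TMM method. Gene counts ranged from 8435494 to 15388744 per library, except in iWAT aKO siNS replicate 2, which had 603585 because 93.3% of its reads were not aligned. That library held 0 to 24 reads of each member, and 3 reads there amounted to 5.93 CPM, so its values are shown but say little about the low genes. The mean CPM of a group gives that library equal weight, whereas the tests weight by depth. Cebpb averaged 18.5 to 50.4 CPM in the siCEBPb groups and 115 to 168 CPM in the siNS groups. What remained of it differed by genotype, at 27.4 ± 6.49 CPM in aKO and 50.4 ± 7.56 CPM in Cont eWAT siCEBPb cells (log2 fold change -0.88 ± 0.170 SE, adjusted p = 0.00134 by edgeR), and 18.5 ± 5.43 CPM in aKO and 36.0 ± 2.02 CPM in Cont iWAT siCEBPb cells (-0.97 ± 0.188, adjusted p = 0.00155). Senp2 averaged 47.6 to 54.5 CPM in all groups, so the gene counts did not show the knockout. A gene count takes in every exon of the gene, and the deletion itself was not examined. The 8 adipocyte markers were present in all groups, with a summed level of 657 to 3890 CPM. Of the markers of mesothelium, the sheet that covers visceral fat, Wt1, itself a factor of visceral fat precursors, averaged 14.4 ± 0.238 CPM in iWAT and 15.1 ± 0.825 CPM in eWAT Cont siNS cells (SD, n = 3 each), so that the cultures labelled inguinal held it at about the level of the epididymal ones.

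Per transcript length, Shox2 was the most abundant member, with a mean of 20.3 RPKM (CPM per kilobase of exon) over the 24 libraries. Irx3 (5.67 RPKM), Nr2f2 (4.95 RPKM), Irx5 (3.99 RPKM), Gata6 (3.84 RPKM) and Nr2f1 (3.75 RPKM) formed a middle tier. Tcf21 averaged 1.00 RPKM and Hand2 0.671 RPKM, while Sox6 (0.0775 RPKM) and Gata4 (0.0548 RPKM) were barely present. Of the 10 members, 9 passed the filter on low counts, about 0.745 CPM in 3 libraries. Tcf21 passed through the 4 Cont groups alone and Hand2 through the 4 aKO groups. For these genes the filter thus favoured a difference between genotypes, without forcing it. Their counts are therefore no support for a pattern over the members.

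Gata4, a factor of heart and gonad as well as of visceral mesoderm, was not tested. It held 11 reads in the 12 aKO libraries (0 to 3 each, median 1) and 56 reads in the 12 Cont libraries (2 to 8 each, median 4). In a fit without the filter, its difference between aKO and Cont passed the threshold only in iWAT siCEBPb cells (log2 fold change -2.66 ± 0.779 SE, adjusted p = 0.0156 by edgeR's quasi-likelihood test). In eWAT siNS cells it was -2.26 ± 0.813 (adjusted p = 0.0547).

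**Figure D1:**
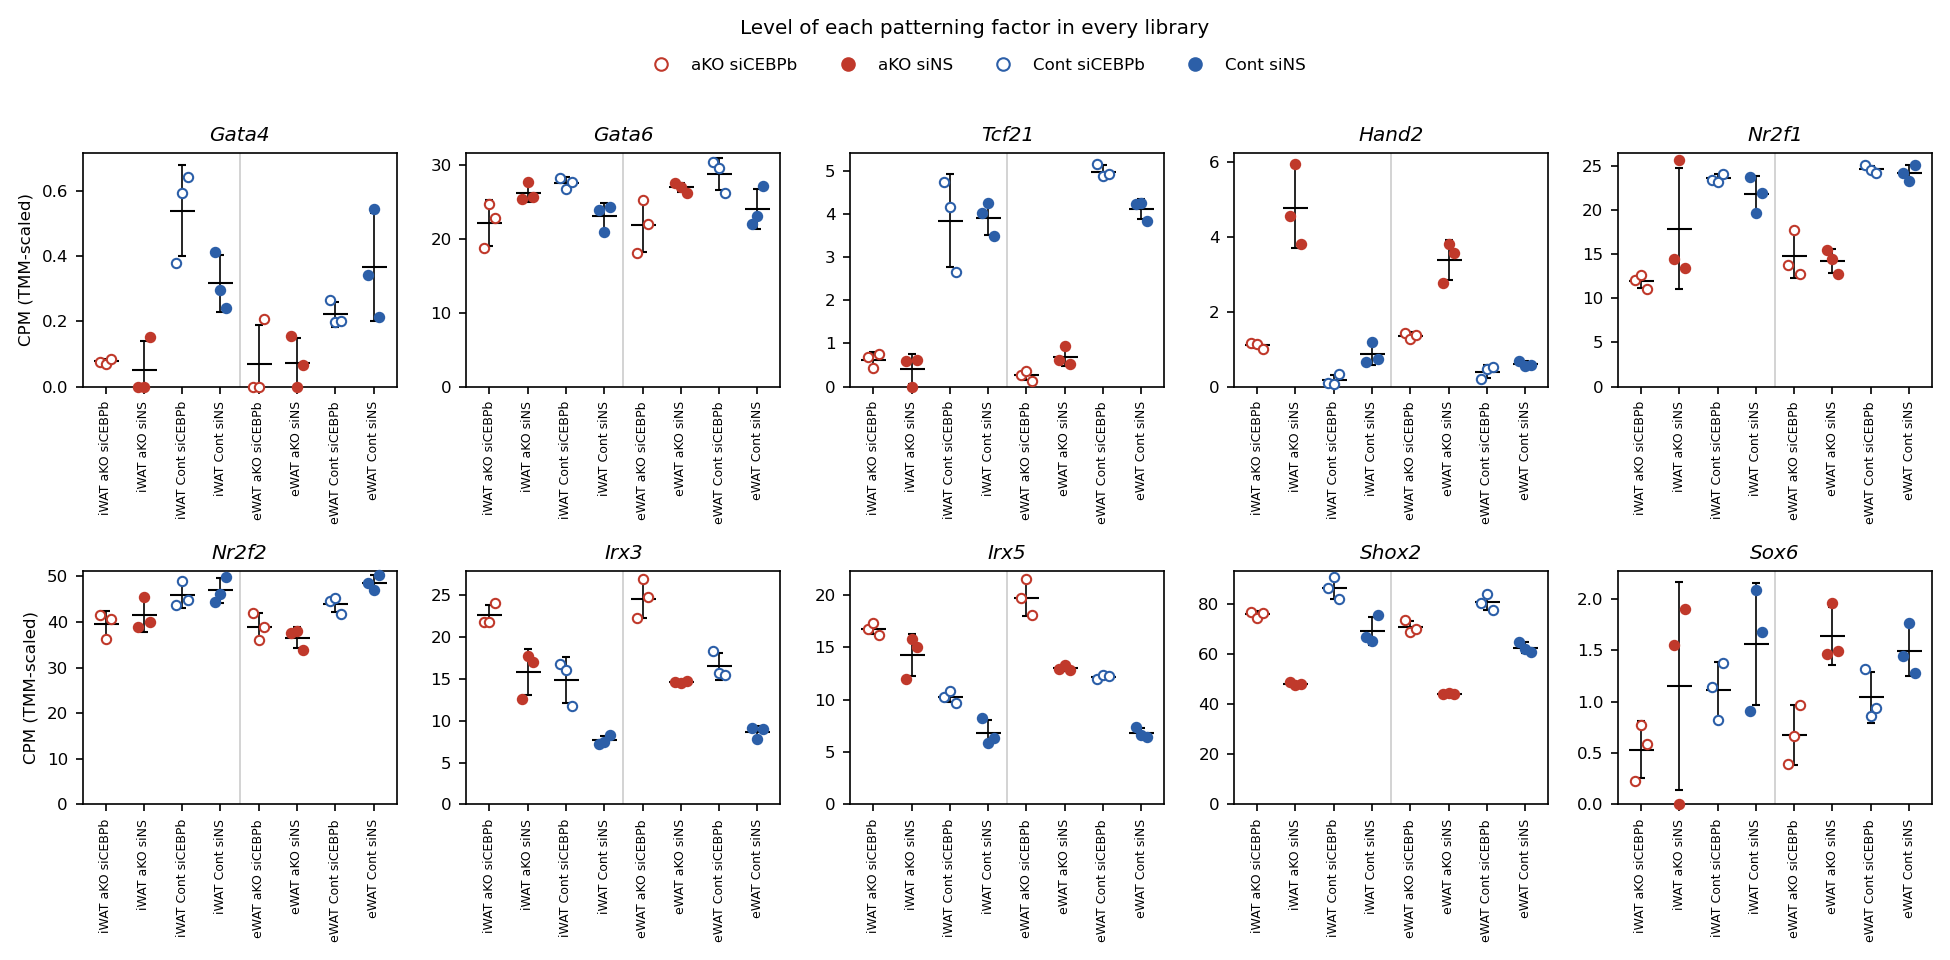
TMM-scaled CPM (vertical axes, linear, from 0) of the 10 patterning factors in each of the 24 libraries, by group; points are libraries, bars the mean ± SD of 3. Tcf21 lay at 0.948 CPM or below in every aKO library and at 2.65 CPM or above in every Cont library, while iWAT and eWAT groups of the same genotype and siRNA lay near each other.

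The first comparison asked whether the factors known to mark depots differed between cultures of the 2 depots. None of the 9 tested members passed between libraries labelled iWAT and eWAT in any of the 4 combinations of genotype and siRNA (edgeR quasi-likelihood test, adjusted p under 0.05 over 14785 genes). At an unadjusted p under 0.05 there were 1 member in Cont siNS, 3 in Cont siCEBPb, 0 in aKO siNS and 3 in aKO siCEBPb cells, and the DESeq2 Wald test also called 0 in each. Of all genes, 15.1%, 19.3%, 11.6% and 17.6% were under that unadjusted p in the same 4 combinations. By adjusted p, 1.20% of all genes were called in Cont siNS, 3.35% in Cont siCEBPb, 0.352% in aKO siNS and 1.44% in aKO siCEBPb cells. The median log2 difference of the members, iWAT over eWAT, was -0.06 in Cont siNS cells, against -0.01 over all genes tested. Without the shallow library the count over all genes in Cont siNS cells was 1123 instead of 178, and that over the members stayed at 0. The depot of each library rests on its label, which was not checked by a measurement independent of these genes.

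Tcf21, the visceral marker, was measured at 4.03, 4.26 and 3.49 CPM in iWAT and 4.24, 4.27 and 3.84 CPM in eWAT Cont siNS cells. The 2 sets overlapped, and the log2 fold change was -0.06, with a 95% interval from -0.45 to 0.33 (adjusted p = 0.920 by edgeR). Shox2, the subcutaneous marker, was at 66.8, 65.2 and 75.3 CPM in iWAT and 64.8, 61.9 and 60.8 CPM in eWAT cells of that group. Every iWAT value lay above every eWAT value, but by little, with a log2 fold change of 0.14 (interval 0.02 to 0.27, adjusted p = 0.265). For the 6 members above 5 CPM in every group, namely Gata6, Nr2f1, Nr2f2, Irx3, Irx5 and Shox2, the 95% intervals of the depot difference ran from -0.48 to 0.28 in Cont siNS cells, and from -0.53 to 0.31 over the 4 combinations. For these genes the intervals thus leave out depot differences beyond 1.45-fold either way. For the low members they were wider, from -0.25 to 1.25 for Hand2 in Cont siNS cells and from -0.65 to 0.69 for Sox6.

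Some estimates kept their sign across combinations without passing. Shox2 was higher in iWAT by the estimate in all 4, at 0.14 in Cont siNS, 0.10 in Cont siCEBPb, 0.13 in aKO siNS and 0.10 in aKO siCEBPb cells, with adjusted p of at least 0.265, and its libraries did not overlap between depots except in Cont siCEBPb cells. Irx5 stood at 10.3, 10.8 and 9.72 CPM in iWAT and 12.0, 12.4 and 12.3 CPM in eWAT Cont siCEBPb cells (log2 fold change -0.25 ± 0.109, adjusted p = 0.200). In aKO siCEBPb cells Irx5 had a log2 fold change of -0.23 ± 0.0959 (adjusted p = 0.199), again without overlap, and in siNS cells it was 0.07 in aKO and 0.01 in Cont cells. The estimate for Tcf21 changed sign. In aKO siCEBPb cells Tcf21 stood at 0.689, 0.423 and 0.758 CPM in iWAT and 0.262, 0.369 and 0.138 CPM in eWAT, a log2 fold change of 1.24 ± 0.460 SE that rested on 24 and 11 reads (adjusted p = 0.153). In Cont siCEBPb cells the same gene was lower in iWAT by the estimate, at -0.38 ± 0.178 (adjusted p = 0.232). Replicate numbers paired the libraries of the depots in Cont siNS and aKO siCEBPb cells, and a fit with the pair as a block also called 0 members, with 119 genes called in all in aKO siCEBPb cells instead of 213.

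**Figure D2:**
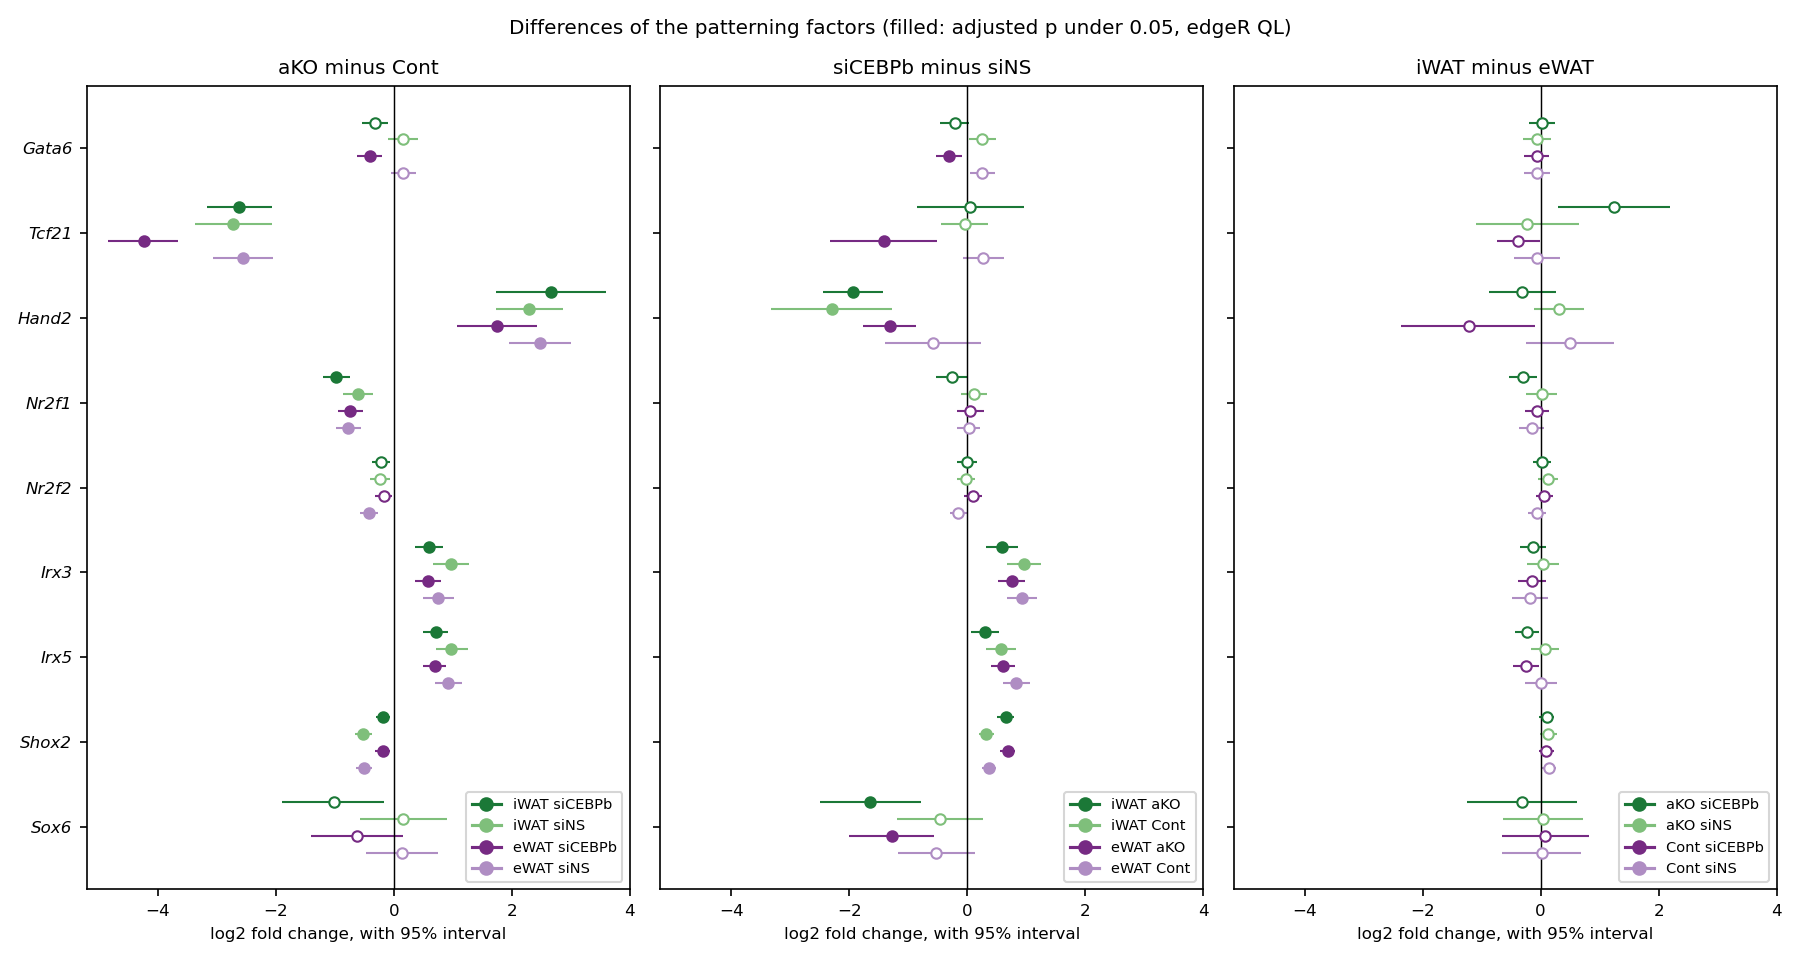
Log2 fold changes (horizontal axes) with 95% intervals for the 9 tested members, for aKO minus Cont, siCEBPb minus siNS and iWAT minus eWAT; each colour is 1 combination of the other factors, and filled points passed an adjusted p of 0.05. The panel for depots holds no filled point, and Tcf21 and Hand2 stand farthest from 0 in the panel for genotype.

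The second comparison set aKO against Cont cells of the same depot and siRNA. Tcf21 and Nr2f1 were lower and Irx3, Irx5 and Hand2 higher in aKO cells in all 4 combinations. Shox2 was also lower in all 4, by more in siNS than in siCEBPb cells. Of the 9 members, 3 rose and 4 fell in eWAT siNS cells, where 9.50% of all genes tested rose and 10.9% fell. In eWAT siCEBPb cells 3 rose and 4 fell, against 3.90% and 6.87% of all genes. In iWAT siNS cells 3 rose and 3 fell, against 7.32% and 7.85% of all genes, and in iWAT siCEBPb cells 3 rose and 3 fell, against 3.52% and 6.51%. The depots share no library in this comparison. With siNS, 6 members were called in both, out of 6 called in iWAT and 7 in eWAT, and all 6 moved the same way. With siCEBPb the same counts were found. Tcf21 and Hand2, which passed the filter through 1 genotype, are among the 6. How many of all genes were called in both depots was not counted, so the agreement is not read as a trait of the members. The median log2 fold change over members was 0.16 in iWAT and 0.13 in eWAT with siNS, against 0.00 over all genes tested in both, and with siCEBPb it was -0.22 in iWAT and -0.19 in eWAT.

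Among the tested members known as visceral markers, Tcf21 changed most. It stood at 0.616, 0.948 and 0.518 CPM in aKO and 4.24, 4.27 and 3.84 CPM in Cont eWAT siNS cells, a log2 fold change of -2.55 ± 0.246 SE (adjusted p = 1.51e-08 by edgeR). In iWAT siNS cells it stood at 0.602, 0 and 0.608 CPM in aKO and 4.03, 4.26 and 3.49 CPM in Cont cells (log2 fold change -2.72 ± 0.317, adjusted p = 6.36e-07). The groups did not overlap in either depot, and the value of 0 was that of the shallow library, without which the log2 fold change was -2.69. In siCEBPb cells the log2 fold change was -4.24 ± 0.291 in eWAT and -2.62 ± 0.269 in iWAT.

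Gata6, on the plus strand of chr18:11052064-11085635, behaved otherwise. With siNS it was at 27.5, 26.9 and 26.2 CPM in aKO and 22.0, 23.0 and 27.1 CPM in Cont eWAT cells, and the difference did not pass (log2 fold change 0.16, adjusted p = 0.304). With siCEBPb it was at 18.1, 25.2 and 22.0 CPM in aKO and 30.4, 29.5 and 26.2 CPM in Cont eWAT cells, and it fell by 0.41 on the log2 scale (adjusted p = 0.00864). That call was lost without replicate 1 of either group (adjusted p = 0.0544 without the Cont library and 0.103 without the aKO library). In iWAT siCEBPb cells the log2 fold change was -0.32 (adjusted p = 0.0609), which passed without the shallow library (0.0332) or iWAT aKO siCEBPb replicate 2 (0.0264).

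Hand2 was the member that rose most. It stood at 2.77, 3.79 and 3.56 CPM in aKO and 0.684, 0.543 and 0.570 CPM in Cont eWAT siNS cells, a log2 fold change of 2.48 ± 0.258 SE (adjusted p = 5.78e-08 by edgeR). In iWAT siNS cells it stood at 4.56, 5.93 and 3.80 CPM in aKO and 0.658, 1.19 and 0.722 CPM in Cont cells (log2 fold change 2.30 ± 0.278, adjusted p = 1.04e-06). Every aKO library was above every Cont library in both depots. The value of 5.93 CPM is 3 reads of the shallow library, and without it the log2 fold change was 2.27. In siCEBPb cells the log2 fold change was 1.75 ± 0.331 in eWAT and 2.67 ± 0.454 in iWAT, where the 3 Cont libraries held 6 reads in all.

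The orphan receptors fell by less. Nr2f1 was at 15.5, 14.4 and 12.8 CPM in aKO and 24.2, 23.3 and 25.1 CPM in Cont eWAT siNS cells (log2 fold change -0.77 ± 0.104 SE, adjusted p = 3.69e-06 by edgeR). In iWAT siCEBPb cells it was at 12.1, 12.6 and 11.1 CPM in aKO and 23.4, 23.2 and 24.1 CPM in Cont cells (log2 fold change -0.98 ± 0.110, adjusted p = 5.15e-07). The groups did not overlap in either case. In iWAT siNS cells they did, since the shallow library read 25.7 CPM from 13 reads beside 14.5 and 13.4 CPM in the other aKO libraries, against 23.7, 19.7 and 21.9 CPM in Cont cells, and the log2 fold change was -0.61 ± 0.124 (adjusted p = 0.00098). That call was lost when only those 2 groups were fitted (adjusted p = 0.0587). A830082K12Rik overlaps Nr2f1 on the opposite strand, with 1165 reads in all against 5762 of Nr2f1. It also fell in the 4 combinations, by 0.82 to 1.15 on the log2 scale. If strand was not used in counting, reads from the stretch shared by the 2 genes cannot be told apart. Nr2f2 fell in eWAT siNS cells, at 37.6, 37.9 and 33.8 CPM in aKO and 48.5, 47.0 and 50.3 CPM in Cont cells (log2 fold change -0.42 ± 0.0727, adjusted p = 0.000114). Its log2 fold change was -0.24 in iWAT siNS cells (adjusted p = 0.0552), which passed without the shallow library (adjusted p = 0.0273) or iWAT Cont siNS replicate 1 (0.0410), -0.17 in eWAT siCEBPb cells (0.148) and -0.22 in iWAT siCEBPb cells (0.0618, or 0.0319 without the shallow library).

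Irx3 and Irx5 rose together. Irx3 was at 14.6, 14.5 and 14.7 CPM in aKO and 9.10, 7.80 and 9.04 CPM in Cont eWAT siNS cells (log2 fold change 0.76 ± 0.126 SE, adjusted p = 6.86e-05 by edgeR). Irx5 was at 12.9, 13.3 and 12.8 CPM in aKO and 7.39, 6.65 and 6.48 CPM in Cont cells of that depot (log2 fold change 0.92 ± 0.112, adjusted p = 7.27e-07). Each aKO library exceeded each Cont library for both genes. In iWAT siNS cells the log2 fold change was 0.97 ± 0.152 for Irx3 and 0.98 ± 0.131 for Irx5, and in siCEBPb cells those of the 2 genes lay between 0.58 and 0.71 in both depots.

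Shox2 was at 44.1, 44.2 and 43.9 CPM in aKO and 64.8, 61.9 and 60.8 CPM in Cont eWAT siNS cells (log2 fold change -0.50 ± 0.0621 SE, adjusted p = 8.73e-07 by edgeR). In iWAT siNS cells it was at 48.9, 47.5 and 47.8 CPM in aKO and 66.8, 65.2 and 75.3 CPM in Cont cells (log2 fold change -0.51 ± 0.070, adjusted p = 6.18e-06). The groups were far apart in both depots. With siCEBPb the log2 fold change was -0.19 ± 0.0593 in eWAT (adjusted p = 0.0385) and -0.19 ± 0.0598 in iWAT (adjusted p = 0.0459). The calls, but not the size of these small differences, depended on single libraries and on the filter. Without the filter the edgeR adjusted p was 0.345 in eWAT and 0.55 in iWAT. In eWAT the call was lost without replicate 1 or 2 of Cont or 2 or 3 of aKO siCEBPb cells, where the log2 fold change was -0.19 to -0.16 (adjusted p from 0.1 to 0.176), and in iWAT without replicate 1 or 2 of Cont or any of aKO siCEBPb cells, where it was -0.20 to -0.15 (0.0922 to 0.229). Sox6 showed no called difference between genotypes, with log2 fold changes from -1.02 to 0.16 and adjusted p of at least 0.144.

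The difference between depots in the effect of genotype was tested in siNS cells. No member passed with edgeR or with the DESeq2 Wald test, with an unadjusted p under 0.05 for 0 members and for 415 of all genes by edgeR, and 0% of all genes were called. The interval of that difference ran from -0.20 to 0.18 for Shox2 and from -1.11 to 0.78 for Tcf21.

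Markers of other cell types moved with genotype. The 8 mesothelial markers summed to 6.09 to 8.03 CPM in aKO and 25.1 to 26.3 CPM in Cont eWAT siNS cells, and to 3.96 to 7.92 CPM in aKO and 27.2 to 28.9 CPM in Cont iWAT siNS cells. Of the 6 tested, 3 fell and 0 rose in each depot, and none of the 8 was at 0 throughout a group. In Cont cells Wt1 made up most of that sum, and Krt19 averaged 3.86 CPM in aKO and 7.15 CPM in Cont eWAT siNS cells, whereas the defining markers Msln, Upk3b and Lrrn4 averaged at most 0.532 CPM in siNS cells. In siCEBPb cells Upk3b averaged 0.271 CPM in aKO and 2.56 CPM in Cont eWAT cells, and 0.169 CPM in aKO and 2.28 CPM in Cont iWAT cells. With siCEBPb the sums were 6.88 to 8.20 CPM in aKO and 28.3 to 30.0 CPM in Cont eWAT cells, and 7.27 to 8.25 CPM in aKO and 25.0 to 32.2 CPM in Cont iWAT cells. The 8 adipocyte markers summed to 2510 to 2740 CPM in aKO and 1740 to 2270 CPM in Cont eWAT siNS cells, and to 2970 to 3890 CPM in aKO and 2100 to 2820 CPM in Cont iWAT siNS cells. Of these 8, 3 rose in eWAT and 2 in iWAT siNS cells, and 0 fell. Lpl alone averaged 1250 CPM in aKO and 1010 CPM in Cont eWAT siNS cells. The 6 leukocyte markers, of which Cd3e was at 0 throughout, summed to 319 to 350 CPM in aKO and 366 to 524 CPM in Cont eWAT siNS cells. In iWAT siNS cells they summed to 231 to 378 CPM in aKO and 376 to 530 CPM in Cont cells. Of the 5 tested, 3 fell in eWAT and 1 in iWAT siNS cells, and 0 rose. With siCEBPb the leukocyte markers summed to 38.6 to 73.0 CPM in aKO and 126 to 144 CPM in Cont eWAT cells, and to 35.8 to 66.0 CPM in aKO and 129 to 140 CPM in Cont iWAT cells. The 8 adipocyte markers then had a median log2 fold change of -0.07 in eWAT and -0.11 in iWAT, with none called. The 6 markers of fibroblast progenitors, the cells from which adipocytes form, summed to 2050 to 2070 CPM in aKO and 1500 to 1530 CPM in Cont eWAT siNS cells, and to 1510 to 2020 CPM in aKO and 1440 CPM in each library of Cont iWAT siNS cells. Of these 6, Pdgfra, Cd34 and Ly6a rose and Dpp4 fell in both depots, with a log2 fold change of Dpp4 of -2.43 ± 0.378 in eWAT and -2.16 ± 0.458 in iWAT. Of the 6 smooth muscle and pericyte markers, 2 fell in eWAT and 4 in iWAT siNS cells, and 0 rose. With siCEBPb, 1 of these markers rose and 1 fell in each depot. Des, a marker of muscle and pericytes, had a log2 fold change of -2.05 ± 0.153 in eWAT and -2.46 ± 0.188 in iWAT siNS cells. For Cdh5, a marker of endothelium, it was -1.71 ± 0.234 in eWAT and -1.40 ± 0.285 in iWAT. Of the 5 endothelial markers, 3 fell and 1 rose in siNS cells of each depot. Tek, another of them, averaged 10.0 CPM in aKO and 5.52 CPM in Cont eWAT siNS cells. In iWAT siNS cells Tek averaged 12.8 CPM in aKO and 4.90 CPM in Cont cells. The part of all these markers in the results on the patterning factors was not tested.

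The third comparison set siCEBPb against siNS cells of the same depot and genotype. Irx3, Irx5 and Shox2 rose in all 4 combinations. Hand2 fell in 3 of them and Sox6 in both aKO combinations, while Nr2f1 and Nr2f2 passed in none. Of the 9 members, 3 rose and 4 fell in eWAT aKO cells, where 16.6% of all genes tested rose and 19.1% fell. In eWAT Cont cells 3 rose and 0 fell, against 11.8% and 14.9% of all genes. In iWAT aKO cells 3 rose and 2 fell, against 13.6% and 17.7%, and in iWAT Cont cells 3 rose and 1 fell, against 10.3% and 14.0%. In Cont cells 3 members were called in both depots, of 4 in iWAT and 3 in eWAT, and in aKO cells 5, of 5 in iWAT and 7 in eWAT, all in the same direction. Here too the matching count over all genes was not made.

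Irx3 nearly doubled with the siRNA in Cont cells. It was at 18.3, 15.7 and 15.5 CPM in siCEBPb and 9.10, 7.80 and 9.04 CPM in siNS eWAT Cont cells (log2 fold change 0.93 ± 0.124 SE, adjusted p = 1.29e-06 by edgeR). In iWAT Cont cells it was at 16.8, 16.1 and 11.8 CPM in siCEBPb and 7.24, 7.52 and 8.30 CPM in siNS cells (log2 fold change 0.96 ± 0.140, adjusted p = 6.02e-06). No siCEBPb library reached down to a siNS library. In aKO cells the log2 fold change was 0.75 ± 0.111 in eWAT and 0.59 ± 0.129 in iWAT. Irx3os, on the opposite strand of Irx3 with 483 reads in all against 4849, was also called in eWAT, at 0.68 ± 0.229 in aKO and 0.90 ± 0.257 in Cont cells. Irx5 followed, with 12.0, 12.4 and 12.3 CPM in siCEBPb and 7.39, 6.65 and 6.48 CPM in siNS eWAT Cont cells (log2 fold change 0.83 ± 0.112, adjusted p = 1.61e-06). In iWAT aKO cells its rise was only 0.30 ± 0.113 (adjusted p = 0.0429 by edgeR), and the call was lost in 7 of 11 alternative fits. It was lost without iWAT aKO siNS replicate 1 (adjusted p = 0.443), iWAT aKO siCEBPb replicate 1 (0.087) or replicate 2 (0.106). It was also lost with the compared groups alone (0.163), without the filter (0.0763) and by the DESeq2 Wald test (0.0786).

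Through both manipulations the 2 Iroquois genes were highest in aKO siCEBPb cells. Irx3 ranged from 21.8 to 26.9 CPM and Irx5 from 16.2 to 21.5 CPM in the 6 aKO siCEBPb libraries, and Irx3 ranged from 7.24 to 9.10 CPM and Irx5 from 5.84 to 8.22 CPM in the 6 Cont siNS libraries. The aKO siNS and Cont siCEBPb groups lay between these ends. For Irx3, the order among these 4 middle groups was within the overlap of neighbouring groups.

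Shox2 moved in opposite directions with genotype and with the siRNA. It was at 73.4, 68.8 and 69.9 CPM in siCEBPb and 44.1, 44.2 and 43.9 CPM in siNS eWAT aKO cells (log2 fold change 0.68 ± 0.0617 SE, adjusted p = 1.03e-09 by edgeR). In iWAT aKO cells it was at 76.8, 74.4 and 76.2 CPM in siCEBPb and 48.9, 47.5 and 47.8 CPM in siNS cells (log2 fold change 0.65 ± 0.0688, adjusted p = 2.31e-08). The rise was smaller on the log2 scale in Cont cells, at 0.37 ± 0.0597 in eWAT and 0.32 ± 0.0612 in iWAT. Group means therefore ranked from 86.2 CPM in iWAT Cont siCEBPb to 44.1 CPM in eWAT aKO siNS cells. Shox2 overlaps Rsrc1 on the opposite strand, and whether reads were counted by strand is not given in the sources used. Rsrc1, at 46.7 to 69.1 CPM, was called in none of these comparisons, with log2 fold changes of 0.08 to 0.18 for genotype and 0.12 to 0.23 for the siRNA.

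Hand2 fell with the siRNA in aKO cells. It was at 1.44, 1.26 and 1.38 CPM in siCEBPb and 2.77, 3.79 and 3.56 CPM in siNS eWAT aKO cells (log2 fold change -1.31 ± 0.219 SE, adjusted p = 2.28e-05 by edgeR). In iWAT aKO cells it was at 1.15, 1.13 and 1.01 CPM in siCEBPb and 4.56, 5.93 and 3.80 CPM in siNS cells (log2 fold change -1.93 ± 0.25, adjusted p = 6.16e-07). Neither depot showed overlap. In iWAT Cont cells it fell by 2.30 on the log2 scale, from a comparison of 6 reads with 26, and in eWAT Cont cells the log2 fold change was -0.58 (adjusted p = 0.345).

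Sox6 was at 0.393, 0.665 and 0.968 CPM in siCEBPb and 1.46, 1.96 and 1.49 CPM in siNS eWAT aKO cells (log2 fold change -1.28 ± 0.350 SE, adjusted p = 0.00484 by edgeR). In iWAT aKO cells it was at 0.230, 0.775 and 0.589 CPM in siCEBPb and 1.55, 0 and 1.90 CPM in siNS cells (log2 fold change -1.64 ± 0.417, adjusted p = 0.00313). The groups did not overlap in eWAT; in iWAT they overlapped through the 0 of the shallow library, and the call was lost without iWAT aKO siNS replicate 3 (adjusted p = 0.0528). In Cont cells the log2 fold change was -0.52 in eWAT and -0.46 in iWAT and did not pass.

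Tcf21 and Gata6 passed with the siRNA in eWAT aKO cells alone. Tcf21 fell by 1.41 on the log2 scale there, on 11 reads in siCEBPb and 30 in siNS cells (adjusted p = 0.0123), and the call was lost without eWAT aKO siNS replicate 2 (adjusted p = 0.105) or eWAT aKO siCEBPb replicate 3 (0.0686). Gata6 fell by 0.31 (adjusted p = 0.0212), which was lost without eWAT aKO siCEBPb replicate 1 (adjusted p = 0.168). In Cont cells the log2 fold change of Gata6 was 0.26 in both depots, with adjusted p of 0.0607 in eWAT and 0.0896 in iWAT, and the eWAT difference passed without replicate 3 of siNS (0.0187) or siCEBPb cells (0.0417).

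Marker sums moved with the siRNA as well. The 6 smooth muscle and pericyte markers summed to 3000 to 3060 CPM in siCEBPb and 1470 to 1710 CPM in siNS eWAT Cont cells, and to 3300 to 4480 CPM in siCEBPb and 1270 to 1310 CPM in siNS eWAT aKO cells. The 6 leukocyte markers summed to 126 to 144 CPM in siCEBPb and 366 to 524 CPM in siNS eWAT Cont cells. The 8 adipocyte markers summed to 657 to 1230 CPM in siCEBPb and 2510 to 2740 CPM in siNS eWAT aKO cells. In each depot 6 of these 8 fell in aKO and 2 in Cont cells, and 0 rose. The 6 fibroblast progenitor markers summed to 1060 to 1300 CPM in siCEBPb and 2050 to 2070 CPM in siNS eWAT aKO cells, and to 971 to 1270 CPM in siCEBPb and 1510 to 2020 CPM in siNS iWAT aKO cells. In Cont cells they summed to 1320 to 1360 CPM in siCEBPb and 1500 to 1530 CPM in siNS eWAT cells, and to 1270 to 1290 CPM in siCEBPb and 1440 CPM in siNS iWAT cells. The mesothelial markers Upk3b, Upk1b and Lrrn4 rose with the siRNA in Cont cells of both depots, and Krt7 fell in both. On the log2 scale Upk3b rose by 2.52 ± 0.559 in eWAT and 2.05 ± 0.613 in iWAT. Of the 6 mesothelial markers tested, 1 fell in eWAT and 2 in iWAT Cont cells. Krt19 averaged 7.06 CPM in siCEBPb and 9.66 CPM in siNS iWAT Cont cells. The lists moved in the same direction in iWAT as in eWAT for smooth muscle and pericyte, leukocyte and adipocyte markers. Their part in the results on the patterning factors was not tested.

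Whether genotype changed the response to the siRNA was tested as the difference of differences, (aKO − Cont) with siCEBPb minus (aKO − Cont) with siNS. For Cebpb itself that difference was -0.74 ± 0.225 in eWAT (adjusted p = 0.0562) and -0.90 ± 0.249 in iWAT (adjusted p = 0.0522), and the part of the unequal residual Cebpb in the values below was not tested. In eWAT 1 member was called higher and 2 lower, against 3.01% and 3.33% of all genes, and in iWAT 1 higher and 0 lower, against 1.32% and 2.19%. Shox2 passed in both depots, at 0.32 ± 0.0858 in eWAT (adjusted p = 0.0255 by edgeR) and 0.33 ± 0.092 in iWAT (adjusted p = 0.0436), so that its deficit in aKO cells was smaller with siCEBPb. In iWAT that call was lost when any library but replicate 2 of Cont siNS, Cont siCEBPb or aKO siNS cells was left out, with adjusted p from 0.0524 to 0.132. In eWAT it was lost without replicate 1 of Cont siNS, replicate 1 or 3 of Cont siCEBPb, replicate 2 or 3 of aKO siNS or replicate 1 of aKO siCEBPb cells, with adjusted p from 0.0575 to 0.0941. Gata6 passed in eWAT at -0.57 ± 0.145 (adjusted p = 0.0179), and in iWAT it was at -0.47 ± 0.161 (adjusted p = 0.105). The eWAT call was lost without replicate 1 of Cont siNS (adjusted p = 0.0555), Cont siCEBPb (0.0571) or aKO siCEBPb cells (0.0792). Tcf21 passed in eWAT at -1.69 ± 0.470 (adjusted p = 0.0294), where siCEBPb aKO cells held few reads, and was at 0.10 ± 0.484 in iWAT (adjusted p = 0.958). That call was lost without replicate 3 of Cont siNS, 1 of Cont siCEBPb, 2 of aKO siNS or 1 or 3 of aKO siCEBPb cells, with adjusted p from 0.0512 to 0.133, and by the DESeq2 Wald test (0.0524). The effect of the siRNA in Cont cells differed between depots for 0 members and 0% of all genes, with an unadjusted p under 0.05 for 428 of all genes and 1 member, Hand2 (-1.72 ± 0.663).

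**Figure D3:**
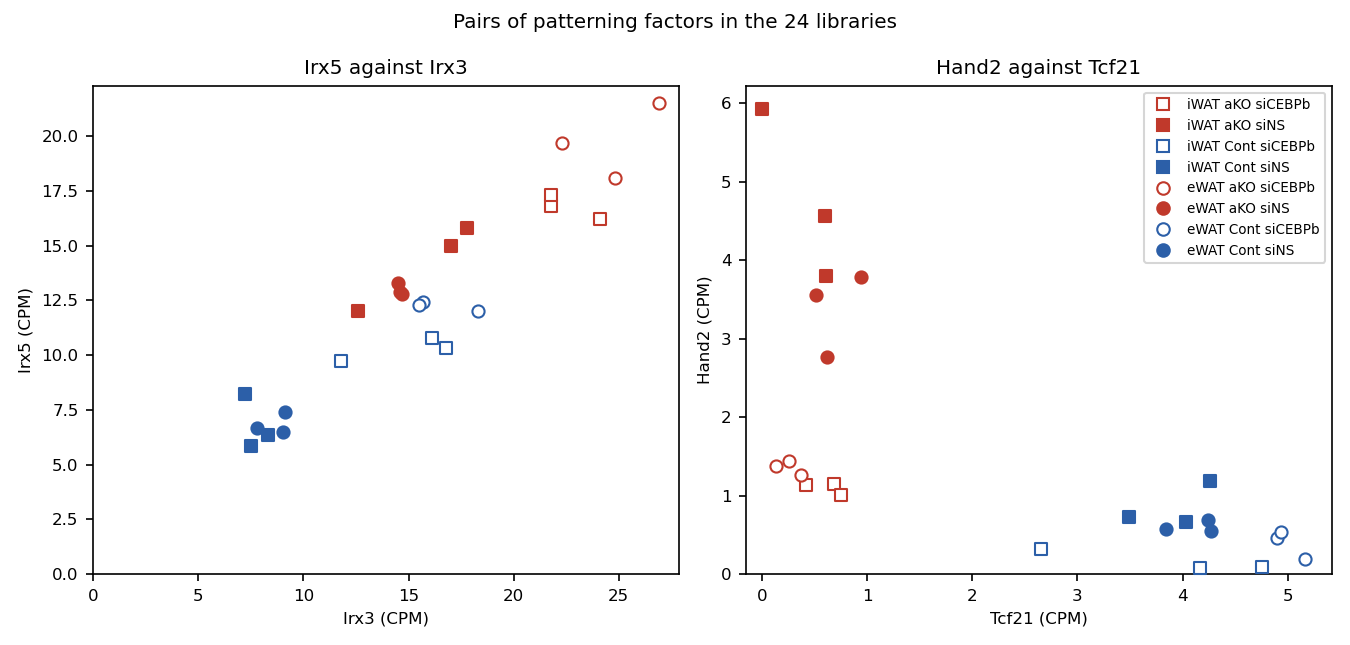
CPM of Irx5 against Irx3 and of Hand2 against Tcf21 in the 24 libraries (linear axes from 0; squares iWAT, circles eWAT; red aKO, blue Cont; open siCEBPb, filled siNS). The Iroquois genes run along 1 line with both ends formed by groups of both depots, and every aKO library lies left of every Cont library for Tcf21.

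Genes whose levels followed those of the members most closely over the 24 libraries were found by Pearson's r of log2 CPM among 11563 protein-coding genes. The libraries fall into 8 groups, and both genes of a pair are read from the same libraries, so r is a description and has no p. Shox2 was followed by Aldh1l2 (0.957), Dkk2 (0.953), a secreted regulator of Wnt signalling, and Rai14 (0.944). Irx3 was followed by Pawr (0.948), Antxr1 (0.947) and Pamr1 (0.946), and Irx5 by Sh3rf3 (0.947), Homer3 (0.944) and again Pamr1 (0.944). Tcf21 was followed by Ptgis (0.941), which encodes prostacyclin synthase, Cdh11 (0.930), a cadherin of mesenchyme, and Wt1 (0.928), and without the shallow library Wt1 came first (0.969), while with a prior count of 0.5 it ranked at place 26. Hand2 was followed by Gas6 (0.940), a ligand of receptor tyrosine kinases, Comp (0.933), a cartilage matrix protein, and Wnt16 (0.914). Nr2f1 was followed by Dmrt2 (0.906), Cdr2l (0.905) and Adgra2 (0.901), and Nr2f2 by Raph1 (0.907), Ccbe1 (0.881) and Fgf2 (0.879), a fibroblast growth factor. Sox6 was followed by Cmbl (0.944), Ppp2r5a (0.942) and Adig (0.933), a gene of adipocyte formation, and Gata6 less closely by Gucy1a1 (0.853), Fxyd6 (0.845) and Ctdsp2 (0.801). Without the shallow library, where Sox6 held 0 reads, Cmbl, Ppp2r5a and Adig ranked at places 19, 9 and 64 for Sox6, Ptgis and Cdh11 at 9 and 14 for Tcf21, and Dmrt2, Cdr2l and Adgra2 at 5, 20 and 19 for Nr2f1. The neighbours of the other members stayed within the first 10 places.

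Genes related to the members, namely other GATA, Iroquois, SOX, bHLH and homeobox factors, their cofactors and other factors of fat and mesoderm, were taken as a list of 56, of which 46 were tested. Between depots there were 2 calls, 1 in Cont siCEBPb and 1 in aKO siCEBPb cells, where 3.35% and 1.44% of all genes were called. Tcf3, a bHLH partner, was lower in iWAT Cont siCEBPb cells (77.5 CPM in iWAT and 92.0 CPM in eWAT, adjusted p = 0.0478 by edgeR), and Irx2 in iWAT aKO siCEBPb cells (22.4 CPM in iWAT and 28.6 CPM in eWAT, adjusted p = 0.0417). Between genotypes, 8 of the 46 rose and 9 fell in eWAT siNS cells, against 9.50% and 10.9% of all genes tested. In eWAT siCEBPb cells 7 rose and 5 fell, against 3.90% and 6.87% of all genes. In iWAT siNS cells 8 rose and 5 fell, against 7.32% and 7.85%. In iWAT siCEBPb cells 7 rose and 6 fell, against 3.52% and 6.51%. The median log2 fold change of the list was -0.01 in eWAT and 0.07 in iWAT siNS cells.

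Wt1 changed most in that list. It averaged 1.60 CPM in aKO and 15.1 CPM in Cont eWAT siNS cells (log2 fold change -3.23 ± 0.144 SE, adjusted p = 1.08e-14 by edgeR), and 1.63 CPM in aKO and 14.4 CPM in Cont iWAT siNS cells (log2 fold change -3.29 ± 0.180). Irx1, another Iroquois gene, rose like Irx3 and Irx5, at 44.9 CPM in aKO and 24.4 CPM in Cont eWAT siNS cells (log2 fold change 0.88 ± 0.092) and with 0.68 ± 0.108 in iWAT. Foxc1, a forkhead factor of mesoderm, averaged 30.0 CPM in aKO and 19.3 CPM in Cont eWAT siNS cells, and Sox9, a cartilage factor and precursor marker, 56.9 CPM in aKO and 37.5 CPM in Cont cells. Meis1, a homeobox cofactor, fell in all 4 combinations, with a log2 fold change of -0.58 in eWAT and -0.45 in iWAT siNS cells, and of -0.59 ± 0.0873 in eWAT and -0.68 ± 0.0883 in iWAT siCEBPb cells.

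With the siRNA, 17 of the 46 related genes rose and 3 fell in eWAT aKO cells, against 16.6% and 19.1% of all genes tested. In eWAT Cont cells 14 rose and 0 fell, against 11.8% and 14.9% of all genes. In iWAT aKO cells 15 rose and 3 fell, against 13.6% and 17.7%. In iWAT Cont cells 16 rose and 1 fell, against 10.3% and 14.0%. The median log2 fold change of the list was 0.16 to 0.23 over these 4 combinations, against -0.01 to 0.02 over all genes tested. Sox9 averaged 65.4 CPM in siCEBPb and 37.5 CPM in siNS eWAT Cont cells (log2 fold change 0.80 ± 0.0793 SE, adjusted p = 9.82e-09 by edgeR), with 0.84 ± 0.0819 in iWAT Cont cells. Ebf2, a factor of adipocyte precursors and brown fat, rose by 0.63 to 0.71 on the log2 scale in the 4 combinations. Zfpm2, a cofactor of GATA factors, averaged 25.2 CPM in siCEBPb and 17.9 CPM in siNS eWAT Cont cells, and its relative Zfpm1 52.4 CPM in siCEBPb and 33.4 CPM in siNS eWAT aKO cells. Irx1 did not rise with the siRNA in any combination; it fell by 0.44 in eWAT aKO cells (adjusted p = 0.000257) and by 0.30 in iWAT aKO cells (adjusted p = 0.0284).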

How the data were processed

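Poly(A) RNA of 24 samples was sequenced with a directional library kit, per the labels' protocols. The submitters' processing notes name CASAVA, cutadapt 2.7, TopHat2 2.1.1, HTSeq and edgeR as tools and GRCm38 as the build. Whether counting used strand is not given in the sources used, so members with an overlapping gene on the opposite strand (all but Gata4 and Irx5) are uncertain to that extent. The authors' deposited table held whole-number counts per gene, and per-sample files that held a signal equal to those counts over 1 constant were not used. Lines that name no gene, 5 in number, took 95.9% of reads in the shallow library, iWAT aKO siNS replicate 2, and 27.5% to 39.5% elsewhere; they were left out.

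Samples were grouped by the depot, genotype and siRNA of the labels. In R 4.3.3 with edgeR 4.0.16, filterByExpr (minimum count 10) left 14785 genes, libraries were scaled by TMM, and 1 mean per group was fitted to all 24 libraries without a block (glmQLFit, robust). The quasi-likelihood F test was applied to 16 contrasts, with Benjamini-Hochberg adjustment over the tested genes and a threshold of 0.05. Standard errors were worked back from the test, as the absolute log2 fold change over the square root of F. The 95% intervals were built from them with the t distribution, so near a log2 fold change of 0 they can differ from the printed p. The procedure was tested on simulated counts. CPM use TMM-scaled library sizes, and RPKM the union of exons in GENCODE M21, which also gave symbols and positions. Promoter sequences and motif matches were handled in Python 3.11.15 with pandas 2.3.3.

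The members and gene lists were chosen with earlier results of these data known. All 10 members are named whatever their result. Up to 4 related genes with the smallest p were eligible for naming in each contrast, as were the 3 genes most like each tested member in log2 CPM (prior count 2), Senp2 and Cebpb. Irx1 with the siRNA was named after its values were seen, and cell type markers and genes that overlap members are named as checks.

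Whether replicate numbers pair libraries was checked by correlating, over 8159 genes averaging 200 reads or more, the deviations of same-numbered libraries from their groups. The correlations ranged from 0.27 to 0.425 between the depots in Cont siNS and from 0.424 to 0.748 in aKO siCEBPb cells, which were taken as paired. Elsewhere at least 1 pair was at or below 0.1. What a number marks is not stated in the labels. No pair of replicates agreed within sampling noise. Alternatives were DESeq2 size factors and the DESeq2 1.42.0 Wald test, no filter, the compared groups alone, a replicate block and each library left out; the omission of the shallow library from contrasts it is not part of was added after seeing the data.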

Additional observations from a re-analysis of the deposited data

Results flagged for a closer look

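An interaction term of the edgeR fit, for the effect of genotype between siRNAs, passed the threshold for 3 members. For Shox2 the difference of log2 fold changes was 0.316 ± 0.0858 SE in eWAT (adjusted p = 0.0255) and 0.328 ± 0.092 in iWAT (adjusted p = 0.0436), with the aKO deficit smaller in siCEBPb cells in both depots. For Gata6 in eWAT it was -0.566 ± 0.145 (adjusted p = 0.0179). For Tcf21 in eWAT it was -1.69 ± 0.470 (adjusted p = 0.0294), on 11 reads in aKO siCEBPb cells and 30 in aKO siNS cells. None of these calls held under every alternative. Shox2 was lost in 7 of 18 alternatives in eWAT and 12 of 17 in iWAT, Gata6 in 3 of 18 and Tcf21 in 6 of 18. Without the filter the edgeR adjusted p of Shox2 was 0.134 in eWAT and 0.184 in iWAT.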

How the results depend on the processing

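Of 144 results on single members, 126 stayed on the same side of the threshold under every alternative run, and 0 changed direction where called. Of 49 called results, 37 held throughout and 12 were lost under at least 1 alternative, while 6 that were not called passed under one. The 0 members between depots held under every alternative, but the count over all genes did not. It moved in Cont siNS cells to 542 without the filter and 710 with the compared groups alone (178 in the fit reported), in Cont siCEBPb cells to 3068 with those groups alone (496), in aKO siNS cells to 138 without the filter, 84 by the DESeq2 Wald test and 0 with those groups alone (52), and in aKO siCEBPb cells to 521 without the filter and 119 with the replicate block by pair (213). With the compared groups alone it moved to 718 for genotype in iWAT siNS cells (2243), 2231 for the siRNA in iWAT aKO cells (4624), 1447 for the eWAT interaction (938) and 303 for the iWAT one (519), which was 921 without the filter. Without the filter 18 and 6 genes were called for the differences between depots in the effect of genotype and of the siRNA (0 each). Called members moved from 1 to 0 in the iWAT interaction without the filter, with the replicate block and with the groups alone, from 3 to 5 for the siRNA in eWAT Cont cells and from 5 to 3 in iWAT aKO cells with the groups alone. The cause was not tested.

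With 1 library left out, counts over all genes ranged between depots from 23 to 1123 in Cont siNS, 60 to 1713 in Cont siCEBPb, 0 to 822 in aKO siNS and 16 to 1478 in aKO siCEBPb cells, each highest without iWAT aKO siNS replicate 2. They ranged from 1436 to 2752 for genotype in iWAT siNS, 942 to 1972 for genotype in iWAT siCEBPb cells, 434 to 1677 for the eWAT and 291 to 939 for the iWAT interaction. Called members ranged from 0 to 3 in the eWAT and 0 to 1 in the iWAT interaction. With the replicate block, Shox2 lost its genotype call in iWAT siCEBPb cells (adjusted p = 0.0558) and its iWAT interaction (0.0516), and Irx5 its siRNA call in iWAT aKO cells (0.0637); in these comparisons the numbers were not taken as pairs. Depth limits Gata4, Sox6, Hand2 and Tcf21.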
